A study of Homo sapiens with 4 samples.

Results

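The genes followed here encode the leucine-rich repeat adhesion proteins of the AMIGO family (AMIGO1, AMIGO2, AMIGO3), the FLRT family (FLRT1, FLRT2, FLRT3), 3 members of the SLITRK family (SLITRK3, SLITRK5, SLITRK6) and LINGO1. The 10 genes were selected on the knockdown over ctrl ratios of these same arrays, and AMIGO2 and FLRT3 were set against each other for their opposite ratios, so those ratios are described here with no test. Every probe whose accession belongs to a listed gene was taken. Of these genes, 9 were represented, by 11 of the 41000 probes that are not control spots, and AMIGO3 had 0 probes by this rule. FLRT2 and LINGO1 had 2 probes each and the other 7 genes had 1.

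The samples were total RNA of A2780s, an established human ovarian adenocarcinoma line, on Agilent whole human genome arrays of 2 colours. The groups were sh-G1 and sh-G2, each 1 stable puromycin-selected clone carrying the same GALNT3 shRNA in pSilencer 4.1 puro, and ctrl, 1 mock-transfected clone carrying that vector. Of the 4 arrays, 2 set sh-G1 and 2 set sh-G2 against ctrl, with the knockdown in Cy5 on replicate 1 and in Cy3 on replicate 2. The arrays of 1 clone may hold the same RNA, and they were averaged to 1 value per clone (n = 2 clones). All values of a knockdown therefore rest on 2 clones and on 1 ctrl clone, and a difference between clones that the shRNA did not make cannot be told apart from one that it made.

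Proteins of these families sit in the cell membrane with leucine-rich repeats outside the cell, by which they bind each other or a partner on the next cell. AMIGO proteins carry an immunoglobulin domain beside the repeats and bind AMIGO proteins on neighbouring cells. FLRT proteins carry a fibronectin type III domain and bind latrophilins and UNC5 receptors, and they also act with FGF receptors. SLITRK proteins bind receptor tyrosine phosphatases of the LAR type and are best known for promoting synapse formation, while LINGO1 is part of the Nogo receptor complex that restrains axon growth. The families are best known from the nervous system, although several members are also expressed in epithelia and in tumours.

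The study designed PCR primers for AMIGO2 and FLRT3, the pair of genes contrasted here. It selected both among genes changed on these arrays, and reported AMIGO2 as higher and FLRT3 as lower by quantitative PCR. The primers are shown because they define the transcripts that the study followed by PCR, 5′ to 3′ and in lower case.
AMIGO2 forward: ggcaggtgcaggtaaaagag
AMIGO2 reverse: gccacaaaaggtgtgtcaga
FLRT3 forward: ggaatggatcgctcttctca
FLRT3 reverse: gcttcggttactactgctttca

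The 250 bases before the transcription start of AMIGO2 and FLRT3 are shown because these had the highest and the lowest ratio of the listed genes. They come from RefSeq, in the build GRCh38.p14, and are written 5′ to 3′ on the strand of the gene with CG dinucleotides in capitals. The AMIGO2 window lies on the minus strand at chr12:47079952-47080201, and it is the first of 2 overlapping windows listed for the gene. The FLRT3 window lies on the minus strand at chr20:14337613-14337862.
AMIGO2: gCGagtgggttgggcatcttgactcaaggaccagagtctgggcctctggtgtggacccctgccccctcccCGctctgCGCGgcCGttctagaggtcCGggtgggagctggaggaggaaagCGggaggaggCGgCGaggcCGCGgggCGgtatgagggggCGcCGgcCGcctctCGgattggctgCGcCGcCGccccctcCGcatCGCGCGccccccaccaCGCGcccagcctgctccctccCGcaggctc
FLRT3: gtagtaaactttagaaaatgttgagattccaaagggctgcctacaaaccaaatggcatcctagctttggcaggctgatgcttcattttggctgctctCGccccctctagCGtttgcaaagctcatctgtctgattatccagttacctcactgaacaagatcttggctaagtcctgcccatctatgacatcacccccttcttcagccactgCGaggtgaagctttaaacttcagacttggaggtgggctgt
The AMIGO2 window held 26 CG dinucleotides and the FLRT3 window 3, where the median over 35116 RefSeq windows of this length was 11. At least 26 were found in 19.6% of all windows and at least 3 in 77.1%. The G and C content was 74.4% for AMIGO2 and 47.6% for FLRT3. The SLITRK6 window held 3 CG dinucleotides, the 2 SLITRK3 windows 8 and 18, and the 3 SLITRK5 windows 13, 30 and 12. These counts describe the sequences only, and no methylation or binding was measured on the arrays.

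Over the 4 arrays, 43376 spots per array were read, with median intensities of 451.5 to 802.5 in Cy3 and 463 to 558 in Cy5. Between 88.1% and 97% of probes were well above background in the knockdown channel and between 95.9% and 97.6% in the ctrl channel. The GALNT3 probe gave log2 ratios of -0.09 and 0.08 for sh-G1 and 0.12 and -0.14 for sh-G2. It was dim in ctrl itself, with a normalised intensity of 78.4 to 88.6, beside 70.9 to 96.7 in the knockdown channels. Its knockdown channel was well above background on 1 of 2 arrays of each clone. With ctrl this dim, the arrays give no reading of the knockdown itself. The study reported lower GALNT3 in both clones by RT-PCR and Western blot. All 12 epithelial markers listed were well above background in the ctrl channel on all 4 arrays, but so were all 5 leukocyte and all 5 endothelial markers, so this mark does not separate cell types. The dye term passed the limma test (Benjamini-Hochberg adjusted p under 0.05) for 12.9% of the 39151 probes kept. Across these probes, Pearson's r between both arrays of sh-G1 was 0.324 and between those of sh-G2 0.186, where arrays of different clones in the same dye orientation gave 0.613 and 0.732, as a description.

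Against ctrl, AMIGO2 was 11.3-fold higher and FLRT3 12.7-fold lower as means over the 2 knockdown clones, and both directions were seen on all 4 arrays. SLITRK5 was 2.78-fold higher, also on all 4 arrays. SLITRK3 and SLITRK6 were higher in sh-G1 but not in sh-G2. AMIGO1, FLRT1, FLRT2 and the brighter LINGO1 probe lay between -0.05 and 0.10 on the log2 scale.

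**Figure D1:**
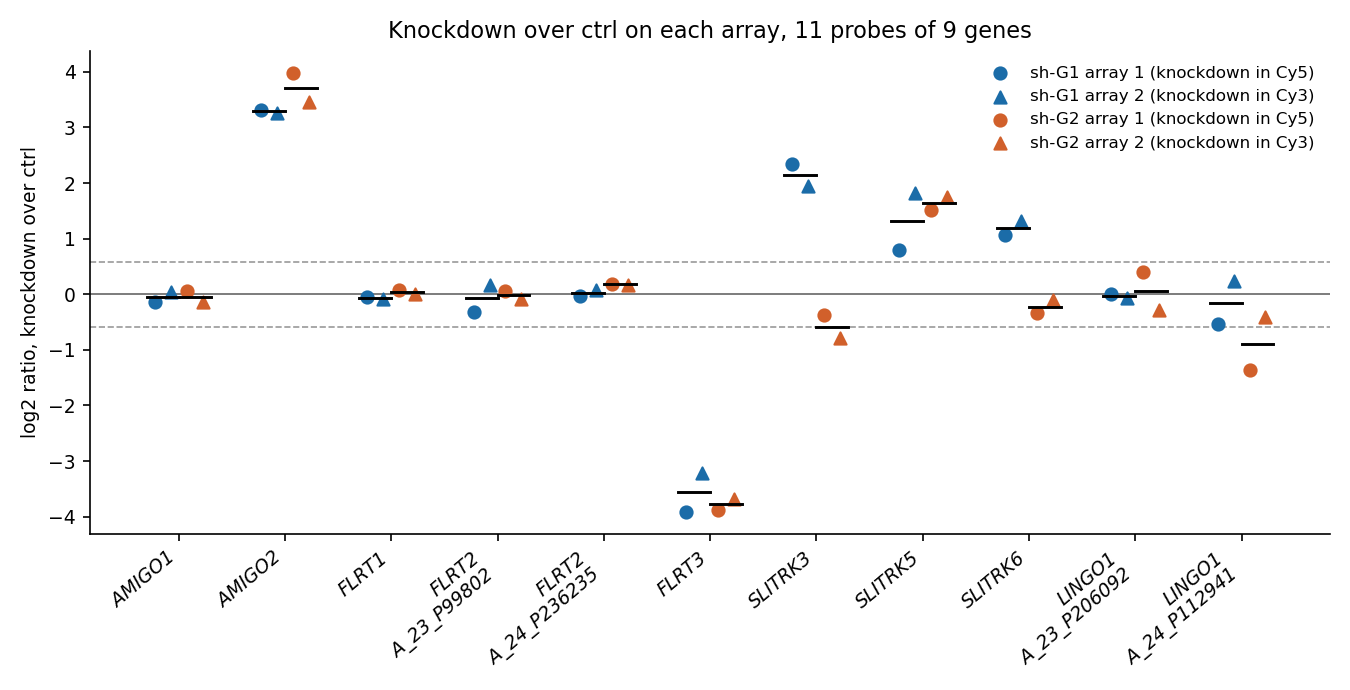
Log2 ratio of knockdown over ctrl on each of the 4 arrays for the 11 probes (blue, sh-G1; orange, sh-G2; circles, knockdown in Cy5; triangles, knockdown in Cy3). Black bars are clone means of 2 arrays and dashed lines mark 1.5-fold. AMIGO2 lies between 3.26 and 3.99 and FLRT3 between -3.91 and -3.21, while SLITRK3 and SLITRK6 lie above the upper line in sh-G1 only.

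At a threshold of at least 1.5-fold on every one of the 4 arrays, 2 of the 11 probes were higher (AMIGO2 and SLITRK5) and 1 was lower (FLRT3). Over all 39151 probes kept, 0.23% were higher and 0.92% lower by this rule. The list was drawn up with these ratios known, so nothing is read from that difference in share. The median log2 ratio of the 11 probes was 0.01, beside -0.0037 over all probes kept. Taken by clone, 4 probes were higher and 1 lower on both arrays of sh-G1, where 0.442% and 1.24% of all probes were. On both arrays of sh-G2, 2 were higher and 1 lower, where 0.552% and 1.42% of all probes were.

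AMIGO2 is a homophilic adhesion protein that was first described as a survival factor of neurons. Its normalised intensity in ctrl was 195, 225, 173 and 201 on the arrays sh-G1 replicate 1, sh-G1 replicate 2, sh-G2 replicate 1 and sh-G2 replicate 2. In the knockdown channel of the same arrays it was 1942, 2156, 2740 and 2195. Every knockdown reading lay above every ctrl reading. Here and for the genes below, the ctrl readings are of 1 clone on 4 arrays and are not replicates. The share of all probes whose readings separate in this way was not counted. The genes were listed with these ratios known, so nothing is read from such a separation, here or for the genes below. The log2 ratio was 3.32 and 3.26 in sh-G1 and 3.99 and 3.45 in sh-G2, with clone means of 3.29 and 3.72. The mean over clones was 3.50 ± 0.30 (SD, n = 2 clones). The folds on the single arrays were 9.97, 9.58, 15.8 and 10.9. In RNA of a whole culture, fewer cells of a type and less RNA per cell cannot be told apart, and this holds for each gene described here.

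FLRT3 is a fibronectin and leucine-rich repeat protein that signals with FGF receptors and binds latrophilins and UNC5 receptors. It was bright in ctrl, with a normalised intensity of 4404, 3220, 4469 and 3741 on the 4 arrays in the same order. In the knockdown channel it was 292, 347, 305 and 292, still well above background on all 4 arrays. The readings of the channels did not overlap. The log2 ratio was -3.91 and -3.21 in sh-G1 and -3.87 and -3.68 in sh-G2, with clone means of -3.56 and -3.77 and a mean of -3.67 ± 0.15 (SD, n = 2 clones). On single arrays FLRT3 was 15.1-, 9.28-, 14.6- and 12.8-fold lower in the knockdown channel.

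Each of the 2 genes kept its direction in both clones and in both dye orientations. The log2 ratio of AMIGO2 minus that of FLRT3 was 7.23 and 6.47 on the sh-G1 arrays and 7.86 and 7.13 on the sh-G2 arrays. The mean over clones was 7.17 ± 0.45 (SD, n = 2 clones). The array with the smallest difference was sh-G1 replicate 2, on which the log2 ratio of FLRT3 was nearest to 0 (-3.21). The log2 value of sh-G2 minus sh-G1 was 0.43 ± 0.15 (SE) for AMIGO2 and -0.21 ± 0.16 (SE) for FLRT3.

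**Figure D2:**
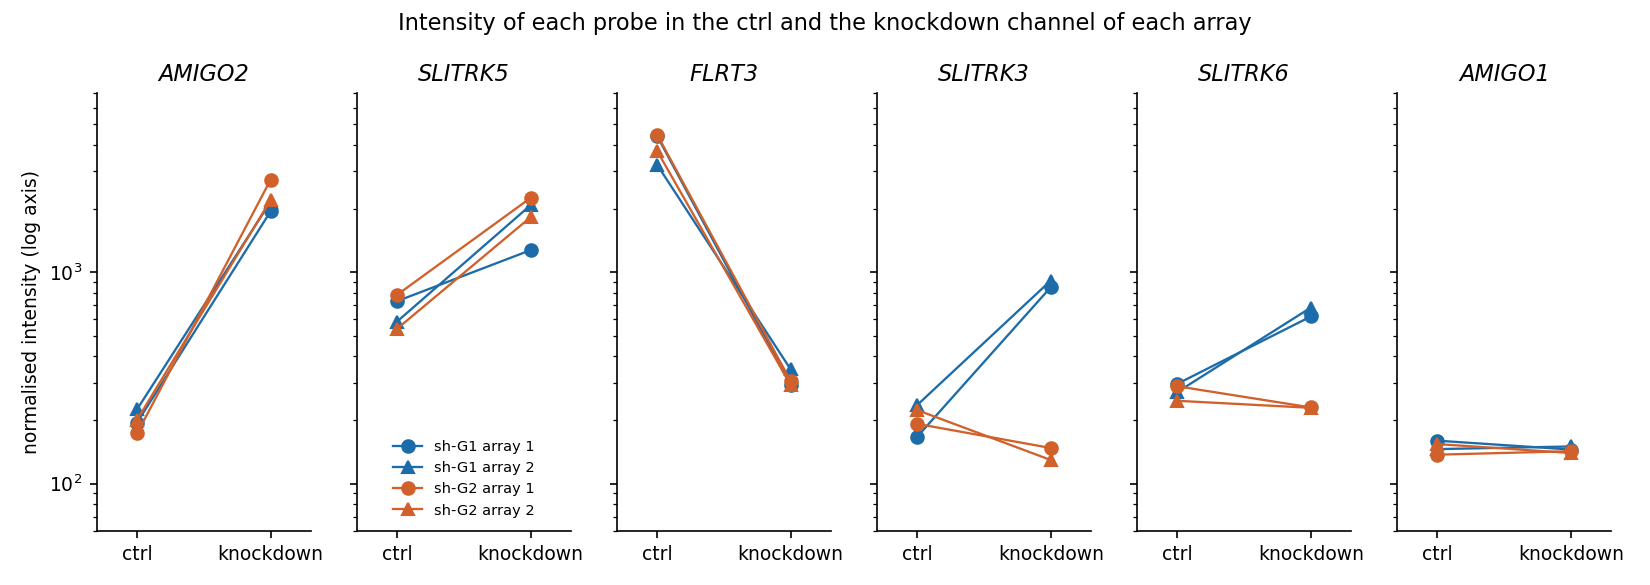
Normalised intensity, on a log axis, of 6 probes in the ctrl channel (left) and the knockdown channel (right) of each array, with the 2 channels of an array joined by a line (blue, sh-G1; orange, sh-G2; circles, replicate 1; triangles, replicate 2). AMIGO2 and SLITRK5 are higher and FLRT3 lower in the knockdown on all 4 lines, SLITRK3 and SLITRK6 are higher on the 2 sh-G1 lines only, and AMIGO1 stays between 137 and 160.

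SLITRK5, a SLITRK protein of the brain that takes part in the sorting of the neurotrophin receptor TrkB, was higher in both clones. Its normalised intensity was 730.2, 585, 782 and 541 in ctrl and 1272.5, 2077, 2248 and 1823 in the knockdown channel, and the readings did not overlap. The log2 ratio was 0.80 and 1.83 in sh-G1 and 1.52 and 1.75 in sh-G2. The mean over clones was 1.48 ± 0.23 (SD, n = 2 clones). The lowest of the 4 ratios came from sh-G1 replicate 1, and at a threshold of 2-fold on all 4 arrays SLITRK5 no longer passed, which left AMIGO2 as the 1 probe higher.

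SLITRK3, a postsynaptic partner of the phosphatase PTPRD at inhibitory synapses, differed between the clones. In ctrl its normalised intensity was 167, 236, 192 and 223. In the knockdown channel it was 850.2 and 914 for sh-G1 and 148 and 129 for sh-G2. The sh-G1 readings lay above every ctrl reading and the sh-G2 readings below every ctrl reading. The log2 ratio was 2.35 and 1.96 in sh-G1 and -0.38 and -0.78 in sh-G2, which as clone means is 4.45-fold higher and 1.497-fold lower.

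SLITRK6, a SLITRK protein known from the inner ear and from bladder tumours, had a like pattern. Its normalised intensity was 297, 271, 289 and 247 in ctrl, 618 and 680.4 in sh-G1 and 229.5 and 229 in sh-G2. Again the sh-G1 readings lay above all ctrl readings and the sh-G2 readings below them. The sh-G2 readings of 229.5 and 229 were close to the lowest ctrl reading of 247. The log2 ratio was 1.06 and 1.33 in sh-G1 and -0.33 and -0.11 in sh-G2. The clone mean of sh-G1 was 2.29-fold higher than ctrl and that of sh-G2 1.17-fold lower.

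The difference between the clones was fitted with limma on the 4 arrays, with a term for dye and adjustment over all 39151 probes kept. For SLITRK3 the log2 value of sh-G2 minus sh-G1 was -2.73 ± 0.08 (SE). For SLITRK6 it was -1.41 ± 0.09 (SE). For the other 9 probes the difference lay between -0.74 and 0.43. Of all probes, 0.123% passed an adjusted p under 0.05 in this fit, and of the 11 probes these 2 did, or 0 without the dye term. The genes were listed with the ratios of both clones known, so nothing is read from that count and the differences are a description with no test. The standard errors cover only the spread between arrays of 1 clone, which may be technical. The dye term itself passed for SLITRK3 (adjusted p = 0.048), whose ratio was higher by 0.40 with the knockdown in Cy5.

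**Figure D3:**
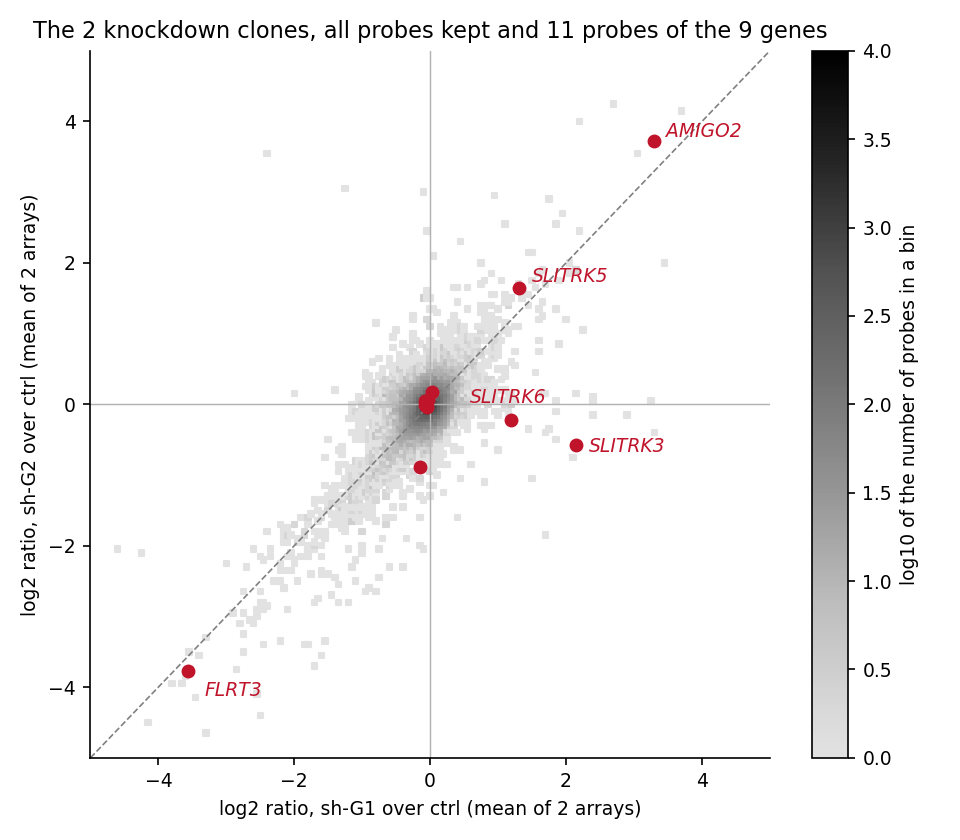
Log2 ratio over ctrl of sh-G1 (horizontal) and sh-G2 (vertical), each the mean of 2 arrays, with all 39151 probes in grey bins and the 11 probes in red. The dashed line marks equal ratios. AMIGO2 (3.29 and 3.72), SLITRK5 and FLRT3 (-3.56 and -3.77) lie near the line, and SLITRK3 (2.15 and -0.58) and SLITRK6 (1.19 and -0.22) lie to its right.

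Close relatives of AMIGO2 and FLRT3 had ratios near 0. AMIGO1, an adhesion protein of neurons, had log2 ratios of -0.14 and 0.04 in sh-G1 and 0.05 and -0.14 in sh-G2. FLRT1 had log2 ratios of -0.06 and -0.09 in sh-G1 and 0.08 and -0.0023 in sh-G2, and it was dim, with the sh-G2 channel well above background on 1 of 2 arrays. FLRT2, which shares the UNC5 and latrophilin partners of FLRT3, had mean log2 ratios of -0.04 ± 0.04 and 0.10 ± 0.11 (SD, n = 2 clones) by its 2 probes. Its brighter probe read between 2660.5 and 3125 in ctrl and between 2327 and 3040.0 in the knockdown channels, and these ranges overlapped.

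LINGO1 gave different values by its 2 probes. The probe A_23_P206092 read 7260.0 to 8524 in ctrl and 7007 to 9587 in the knockdown channels, with a mean log2 ratio of 0.01 ± 0.06 (SD, n = 2 clones). The probe A_24_P112941 had log2 ratios of -0.54 and 0.24 in sh-G1 and -1.36 and -0.41 in sh-G2. On this probe the ratio was lower by 0.86 with the knockdown in Cy5 (adjusted p of the dye term = 0.0385), and ctrl itself read 746 and 847 in Cy3 and 572 and 508 in Cy5. No direction is given for LINGO1, since its probes disagree and the ratio of the second changed sign with the dye in sh-G1.

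The place of a gene on the chromosome was compared with that of its neighbours, by the order of RefSeq genes. FLRT3 on chromosome 20 lies inside MACROD2, whose 2 probes had mean log2 ratios of 0.01 and -0.04. FLRT1 on chromosome 11 lies inside MACROD1, with -0.0047. AMIGO2 on chromosome 12 overlaps PCED1B, with 0.10, and its flanking genes SLC38A4 and RPAP3 had 0.04 and 0.28 by their brightest probes. The second SLC38A4 probe had 0.56, the mean of 0.30 for sh-G1 and 0.81 for sh-G2. None of these probes passed the limma test of the mean (adjusted p from 0.236 to 0.988). SLITRK1, SLITRK6 and SLITRK5 follow each other on chromosome 13, and SLITRK1 had 0.35 and 0.44 by its 2 probes (adjusted p = 0.129 and 0.103), between 0.26 and 0.60 on all 4 arrays. GPC5, on the other side of SLITRK5, had -0.10 (adjusted p = 0.545). BCHE, the gene after SLITRK3 on chromosome 3, had a log2 ratio of 1.63 as the sh-G1 mean and 0.13 as the sh-G2 mean (difference -1.50, adjusted p = 0.0741). SI, on the other side of SLITRK3, had 0.06 and 0.0023 (difference -0.05, adjusted p = 0.975).

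Binding partners, further family members and other leucine-rich repeat membrane proteins were read from lists of 73 genes, of which 69 had a probe and 68 a probe that was kept, 96 probes in all. In the limma test of the mean of the clones against 0, which leaves out the spread of ctrl, 0 of 96 probes were called higher and 1 lower, where 0.138% and 0.7% of all probes were. At an unadjusted p under 0.05, 7 of 96 were higher and 11 lower, where 5.28% and 8.01% of all probes were. Some genes have several probes, and by the brightest probe of each gene 6 of 68 were higher and 6 lower. With ctrl given the spread of the knockdown clones, limma called 0 of 96 probes, with 11 at an unadjusted p under 0.05. In that setting it called 0 of all 39151 probes, with 1862 at an unadjusted p under 0.05, so the 0 is not particular to these lists. The median log2 ratio of the 96 probes was -0.02. The probe called was OMG, a myelin glycoprotein that binds the Nogo receptor, with log2 ratios of -0.64, -0.54, -0.59 and -0.57 (mean -0.59 ± 0.0093, SD, n = 2 clones, adjusted p = 0.0406). The study had already listed OMG as lower from these arrays, so this p-value is a description and no independent support.

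**Figure D4:**
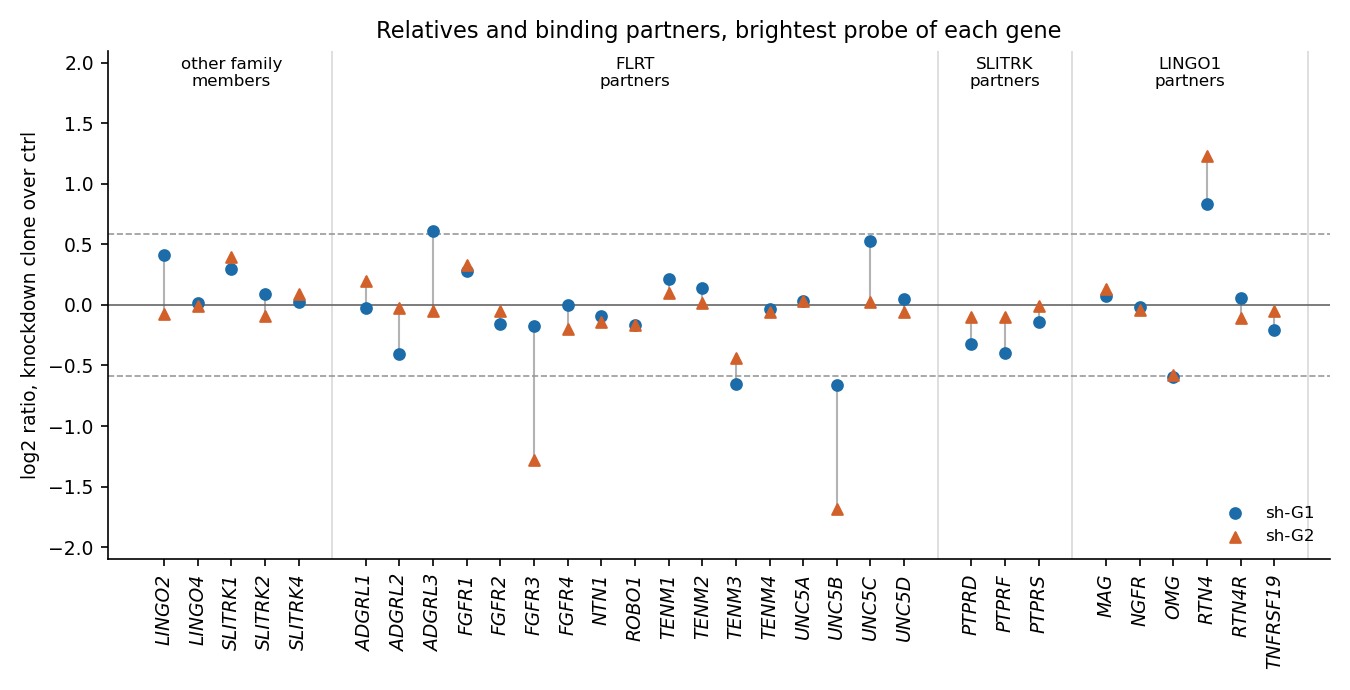
Log2 ratio over ctrl of sh-G1 (blue circles) and sh-G2 (orange triangles), each the mean of 2 arrays, for the brightest probe of each gene in 4 lists of relatives and partners. Dashed lines mark 1.5-fold. Most genes lie between the lines in both clones, RTN4 lies above (mean 1.04) and UNC5B below (mean -1.18).

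Among the 17 FLRT partners, 0 of 28 probes were called by limma (1 higher and 6 lower at an unadjusted p under 0.05, beside 5.28% and 8.01% of all probes) and the median log2 ratio was -0.06. Several of the 6 lower probes were of the single gene TENM3. By the brightest probe of each gene, 1 of 17 was higher and 2 were lower at that threshold. The latrophilins ADGRL1, ADGRL2 and ADGRL3 had means of 0.09, -0.22 and 0.28 by their brightest probes. UNC5B, a netrin receptor that FLRT3 also binds, had log2 ratios of -1.14 and -0.19 in sh-G1 and -2.11 and -1.26 in sh-G2 (mean -1.18 ± 0.72, SD, n = 2 clones, adjusted p = 0.2585). The dye term passed for UNC5B (adjusted p = 0.0385). FGFR3 had a log2 ratio of -0.17 as the sh-G1 mean and -1.28 as the sh-G2 mean by its brighter probe (adjusted p of the difference = 0.0877). Its dimmer probe had 0.04 and -0.20 (adjusted p of the difference = 0.808). TENM3, a teneurin that binds latrophilins, had log2 ratios of -0.996, -0.31, -0.87 and -0.0023 by its brightest probe (mean -0.54 ± 0.15, SD, n = 2 clones, adjusted p = 0.128), and its other 4 probes had means from -0.75 to -0.08. The dye term passed for the brightest TENM3 probe too (adjusted p = 0.0385), whose ratio was lower by 0.78 with the knockdown in Cy5. FGFR1, a receptor through which FLRT3 acts in development, had a mean of 0.31 ± 0.04 (SD, n = 2 clones, adjusted p = 0.218).

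The SLITRK partners PTPRD, PTPRF and PTPRS had means of -0.21, -0.25 and -0.08 by their brightest probes, with 0 of 5 probes called by limma and 0 at an unadjusted p under 0.05. Of the Nogo receptor partners of LINGO1, RTN4, the gene of the ligand Nogo, was at least 1.5-fold higher on all 4 arrays, with log2 ratios of 0.66, 1.02, 1.12 and 1.34 (mean 1.04 ± 0.28, SD, n = 2 clones), and it did not pass limma (adjusted p = 0.0948). RTN4R and NGFR had means of -0.03 and -0.03. The remaining members SLITRK2, SLITRK4, LINGO2 and LINGO4 had means from -0.0013 to 0.17 by their brightest probes.

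Among 36 other leucine-rich repeat genes, 0 of 47 probes were called by limma, with 3 higher and 3 lower at an unadjusted p under 0.05, beside 5.28% and 8.01% of all probes. The probe A_24_P666105 of LRRTM4, a synaptic organiser, was at least 1.5-fold lower on all 4 arrays, with log2 ratios of -2.13 and -1.57 in sh-G1. In sh-G2 it was not well above background in the knockdown channel, so it was at least 8.65-fold lower than ctrl. The brightest LRRTM4 probe read 862 to 1100 in ctrl and 681 to 1340 in the knockdown channels, and these overlapped.

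Genes whose ratios were most like those of AMIGO2 and FLRT3 were found by the Euclidean distance of the 4 log2 ratios. Nearest to AMIGO2 were ZFHX4 (distance 0.45), HS6ST2 (0.86), ESRRG (1.12), PWWP3B (1.64) and ADGRV1 (2.36). Among those nearest to FLRT3 were ARMCX2 (0.34), PTGER4 (0.47), ANXA3 (0.62) and UCHL1 (0.93). ZFHX4 had log2 ratios of 3.07, 3.02, 3.93 and 3.17 on the 4 arrays, and ARMCX2 had -4.02, -3.22, -4.15 and -3.52.

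Markers of cell types were read beside these values. Over all 39151 probes kept, limma called 0.138% higher and 0.7% lower, and 5.28% and 8.01% were so at an unadjusted p under 0.05. Of 10 neural markers, 0 were called higher and 1 lower, which was NEFL, a neurofilament gene (mean -1.84, adjusted p = 0.0261). Their summed intensity was 13115 to 14638 in ctrl and 8951 to 15908 in the knockdown channels. Of 12 epithelial markers, the keratins KRT8 (mean -1.03, adjusted p = 0.0317) and KRT18 (-2.32, adjusted p = 0.0365) were called lower, and the sum was 19428 to 23337 in ctrl and 11028 to 12087 in the knockdown channels. The median log2 ratio of the 12 genes was -0.04, and the other 10, EPCAM at -0.33 the lowest and KRT19 at 0.04 the highest, did not pass at an unadjusted p under 0.05. Of 7 fibroblast markers by their brightest probes, 6 were lower at an unadjusted p under 0.05, and the median was -0.78. Of all 10 kept probes of these genes, 6 were lower and 3, all of COL3A1, were higher at that threshold. PDGFRA was called lower (-1.16, adjusted p = 0.0214) and COL3A1 higher (0.90, adjusted p = 0.0349). The proteoglycans DCN and LUM were at least 1.5-fold lower on all 4 arrays, with means of -3.17 (adjusted p = 0.188) and -3.31 (adjusted p = 0.221). The study had already listed KRT8, KRT18, NEFL, PDGFRA and LUM as lower and COL3A1 as higher from these arrays. Their p-values are therefore a description and no independent support. The fibroblast sums were 71888 to 78641 in ctrl and 65797 to 76264 in the knockdown channels, of which COL3A1 alone made 29841 to 34898 and 55205 to 61949. Of 5 endothelial and 5 leukocyte markers 0 were called in either direction, and 0 passed at an unadjusted p under 0.05. Their sums were 2141 to 3039 in ctrl and 2129 to 3199 in the knockdown channels for the endothelial list, and 3699 to 4056 and 3780 to 4096 for the leukocyte list. With ctrl given the spread of the knockdown clones, limma called 0 of the 53 marker probes, where 7 were called without it, and 11 passed at an unadjusted p under 0.05. Of all 39151 probes, 0 were called in that setting and 328 without it, and 1862 passed at an unadjusted p under 0.05. The 0 is therefore not particular to the markers. The part of these markers in the values of the adhesion genes was not tested.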

How the data were processed

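Each knockdown clone was compared with ctrl on 2 Agilent arrays with exchanged dyes, all on 1 slide. The authors extracted spot intensity with Agilent Feature Extraction (8.5.1.1 in the labels, 10.5.1.1 in the file headers) and deposited, per channel, the median spot and background intensity, and the log10 ratio of Cy5 over Cy3. In the deposited series matrix, the column of sh-G1 replicate 2 holds the error of that ratio and not the ratio.

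Median intensities were background corrected (normexp, offset 50) and loess normalised within arrays with limma 3.58.1 in R 4.3.3. Spots with outlier marks were left out, each log2 ratio was given the direction of knockdown over ctrl, and repeated spots were averaged. Printed intensities are those of the channels after scaling of the mean intensity between arrays (Aquantile). A probe was kept where 1 channel or both were well above background on every array, which held for 39151 of 40905, and all 11 probes of the listed genes passed. Accessions were matched to RefSeq genes for 25398 probes of 41000. The coordinates of the sequences are those of RefSeq in GRCh38.p14 and were not set against array coordinates. The array number limits the precision.

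The genes and lists were chosen with earlier results of these data known. The ratios of the listed genes, and their differences between clones, were therefore described and counted, with no test. The mean of the 2 clones was tested against 0 for the other lists, and sh-G2 minus sh-G1 and the dye were fitted on the 4 arrays, with limma (lmFit and eBayes with trend), Benjamini-Hochberg adjustment over the 39151 probes and a threshold of 0.05. Some genes of those lists are among the changed genes that the study reported from these arrays. Their p-values are therefore no independent support for a change. The limma fits of the mean and of the difference were run on simulated ratios with planted changes. That simulation had no spread between clones and no dye effect, and it did not cover the normalisation or the filter. Genes named are all listed genes, GALNT3, genes of the lists that passed limma or were 1.5-fold changed on all 4 arrays, neighbours, and the 5 genes nearest to AMIGO2 and to FLRT3; UNC5B, FGFR3, FGFR1, TENM3, BCHE and the partners given by their means were named as well after their values were seen. A few genes that this rule names are not reported here. For a gene with several probes, the brightest kept probe is given first. Alternatives were no background correction or an offset of 0, median centring, the ratios of the software and of the series matrix, other filters, other blocks and each array left out. Figures were made with matplotlib 3.10.9 in Python 3.11.15.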

Additional observations from a re-analysis of the deposited data

Results flagged for a closer look

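In all, 6 probes, 2 of them of the adhesion genes described and the others of the lists of other leucine-rich repeat genes and fibroblast markers, passed the threshold in the limma fit of sh-G2 minus sh-G1. They came from 11 adhesion probes, 96 probes of the other lists and 53 marker probes, where 48 of all 39151 probes (0.123%) passed. Without the dye term 5 of all probes passed, and the probes of the lists were not counted in that fit. The log2 difference was -2.73 for SLITRK3 and -1.41 for SLITRK6, both higher than ctrl in sh-G1 on 2 of 2 arrays and lower in sh-G2 on 2 of 2 arrays. These 2 genes were listed with the same ratios known, so their differences are a description with no test. Each clone is 1 sample read on 2 arrays, so the p-values of the other probes measure only the spread between arrays. LRRN3, another neuronal leucine-rich repeat protein, differed by -2.11 (adjusted p = 0.0321) by its brightest probe, with log2 ratios of 1.51 and 2.02 in sh-G1 and -0.50 and -0.20 in sh-G2, while its second probe differed by -0.88 (adjusted p = 0.134). The LRRTM4 probe A_24_P666105 differed by -1.53 (adjusted p = 0.0282), but it was not well above background in the knockdown channel of sh-G2, so the size of this difference is not measured. Of the fibroblast markers, the small matrix proteoglycans DCN and LUM differed by 2.15 (adjusted p = 0.0301) and 2.53 (adjusted p = 0.0181). DCN had log2 ratios of -4.12 and -4.37 in sh-G1 and -2.07 and -2.11 in sh-G2, and LUM had -4.65 and -4.51 in sh-G1 and -2.08 and -2.01 in sh-G2.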

How the results depend on the processing

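The difference of AMIGO2 and FLRT3 kept its sign under all 13 alternatives, at 8.03 with the software ratios, 7.795 with an offset of 0 and 8.08 with the series matrix values of 3 arrays, and between 6.98 and 7.36 when 1 array was left out. Among these alternatives, the filters on dim probes and the choice of brightest probes could not change the difference, since each gene has 1 probe. AMIGO2, SLITRK5 and FLRT3 kept their direction under all 14 settings run for each. The count of adhesion probes higher on all arrays was 1 at 2-fold and 4 with sh-G2 left out, a setting chosen after seeing the data, and 2 with each array left out. Without the dye term (no replicate block), 0 of the 11 adhesion probes passed the threshold between the clones, with -2.73 for SLITRK3 and -1.41 for SLITRK6; with an array left out these differences lay between -2.94 and -2.53 and between -1.55 and -1.28, as values with no test, since no residual degrees of freedom were left.

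For the 96 probes of the other lists, the main counts of 0 higher and 1 lower became 2 and 2 with the software ratios, 3 and 4 with the series matrix, 6 and 9 with clone as a random block (consensus correlation -0.656) and 8 and 7 with dye as the replicate block. Both block fits took single arrays as the units, although arrays of 1 clone may hold the same RNA, so their counts may be too high. The random block fit also had no dye term. The count lower was 2 with no filter on dim probes, 0 with both channels well above background and 0 with ctrl given the spread of the knockdown clones, and the counts lay between 0 and 4 higher and between 1 and 5 lower with an array left out. Over all probes, 90 higher and 360 lower on all arrays ranged from 35 to 261 and from 187 to 659, the limma counts of 54 and 274 from 0 to 848 and from 0 to 1722, and the 48 between clones from 5 to 65. The cause was not tested. Probes that are dim, such as those of GALNT3 and FLRT1, limit what the arrays can show.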

Other observations

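The genes whose 4 log2 ratios lay nearest to those of SLITRK3 and SLITRK6 were read in the same way as for AMIGO2, a choice made after the values were seen. Nearest to SLITRK3 were HOXA13 (distance 0.65), FMN2 (0.87), LRRN3 (1.03), FOXC1 (1.05) and ZAR1 (1.09). HOXA13, a homeobox gene, had log2 ratios of 2.02 and 2.19 in sh-G1 and -0.86 and -0.64 in sh-G2. Among those nearest to SLITRK6 were SULF1 (distance 0.41), GRM3 (0.45), PCDH15 (0.47) and EFNA5 (0.48).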
